A study of Homo sapiens with 36 samples.

Results

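Untreated differentiated Caco-2 cells were compared with untreated HT-29 cells in poly(A)-selected RNA. The comparison used 6 of the 36 libraries of the study, 3 from each cell line. They were picked by their labels, with earlier results of these data known. Both lines were grown from human colorectal adenocarcinomas. Caco-2 cells had been left to differentiate over 21 days, in serum-containing MEM, whereas HT-29 cells were grown in McCoy's 5A medium with a lower share of serum and no differentiation period was given for them. Cell line, medium and differentiation therefore changed together and cannot be told apart in any value below. Control medium of both lines held 0.5 µl DMSO per ml by the treatment protocol of the labels. The methods of the study give a different strength of DMSO and another label gives no treatment, so its amount is uncertain. In the other mRNA libraries of the same lines, 300 µM cobalt chloride (CoCl2) or 5 µM of an oxyquinoline derivative (OD, dissolved in DMSO) had been present for 24 h. Those 12 libraries were used only to see whether a difference between the lines was also there under treatment. Each line comes from the tumour of a single patient, so the values describe the lines and not the normal intestine.

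Caco-2 cells are widely used as a model of the absorptive enterocyte. After reaching confluence they polarise, build a brush border of microvilli and put digestive hydrolases and transporters on it. They also keep fetal traits, among them the secretion of plasma proteins and lipoproteins that the adult body takes mainly from the liver. HT-29 cells in ordinary glucose medium stay largely undifferentiated and hold a minority of mucus-forming cells. HT-29 is also a known carrier of a mutant BRAF kinase, which feeds the MAPK pathway. HNF4 factors are transcription factors shared by liver and intestine, CDX2 specifies the intestinal epithelium, and the interferon response acts through a promoter element called ISRE.

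The stretches of DNA just upstream of 4 genes are shown because their levels differed between the lines and a searched motif was found there. They encode a plasma protein, a brush border enzyme and the products of a pair of interferon stimulated genes. Each stretch was read from RefSeq on GRCh38.p14, runs 5′ to 3′ on the strand of the gene and ends at the base before the annotated start. Capitals mark a match to the motif named for it, on either strand. The letters searched were CAAAGTNCA (N for any base) for HNF4, CAATAAA for CDX, and GAAA, any 2 bases and GAAA for the ISRE. The AHSG stretch is at chr3:186612810-186613059 (plus strand, HNF4 letters), SI at chr3:165078497-165078626 (minus strand, CDX), IFIT1 at chr10:89392493-89392622 and ISG15 at chr1:1013367-1013496 (both plus strand, ISRE). A match is a run of letters and not a shown binding site.
AHSG: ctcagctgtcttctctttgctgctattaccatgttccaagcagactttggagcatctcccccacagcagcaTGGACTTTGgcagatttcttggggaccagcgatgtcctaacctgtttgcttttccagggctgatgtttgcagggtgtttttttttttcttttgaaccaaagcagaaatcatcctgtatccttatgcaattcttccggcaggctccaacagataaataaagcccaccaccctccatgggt
SI: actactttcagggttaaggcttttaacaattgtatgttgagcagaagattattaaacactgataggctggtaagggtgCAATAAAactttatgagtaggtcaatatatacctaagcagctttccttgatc
IFIT1: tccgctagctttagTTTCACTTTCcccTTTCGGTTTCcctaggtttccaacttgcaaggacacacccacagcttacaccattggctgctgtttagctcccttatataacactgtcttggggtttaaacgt
ISG15: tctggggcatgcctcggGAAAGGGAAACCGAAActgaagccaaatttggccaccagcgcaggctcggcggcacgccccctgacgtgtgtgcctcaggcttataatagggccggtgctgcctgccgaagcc

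Total counts ran from 13091650 to 15296543 in the Caco-2 libraries and from 12925719 to 22332639 in the HT-29 libraries. The 20 genes with most counts took between 8.80% and 10.9% of a library. Pearson's r of log2 CPM across genes was at least 0.9926 between libraries of 1 line and between 0.701 and 0.706 across lines, where genes are not independent replicates. Replicates of a line differed by more than counting error, since chi-square over its degrees of freedom reached 2.00 or more and at most 6.33. In HT-29 this value was 6.33 and 5.20 for the pairs with replicate 3 and 2.00 for replicates 1 and 2. By Pearson's r replicate 3 did not stand apart (0.9946 and 0.9953, beside 0.9944 for replicates 1 and 2). Depth set a floor of 3 counts per library, equal on average to 0.219 CPM in Caco-2 and 0.184 CPM in HT-29. Intervals and floors cover counting error only.

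Both lines carried the general epithelial markers. EPCAM, an adhesion molecule of epithelia, stood at 943, 845 and 932 CPM (counts relative to the library total after TMM scaling, in replicates 1 to 3) in Caco-2 and at 574, 567 and 537 CPM in HT-29. CDH1, which encodes E-cadherin, stood at 1618, 1637 and 1644 CPM in Caco-2 and at 545, 564 and 529 CPM in HT-29. Both genes were above the floor by a wide margin in each library. PTPRC, the pan-leukocyte marker, had no count in any Caco-2 library and 1, 0 and 2 counts in HT-29, and the endothelial factor ERG had no count in any of the 6 libraries. The plot of levels by library shows 25 genes that mark epithelial and other cell types.

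**Figure D1:**
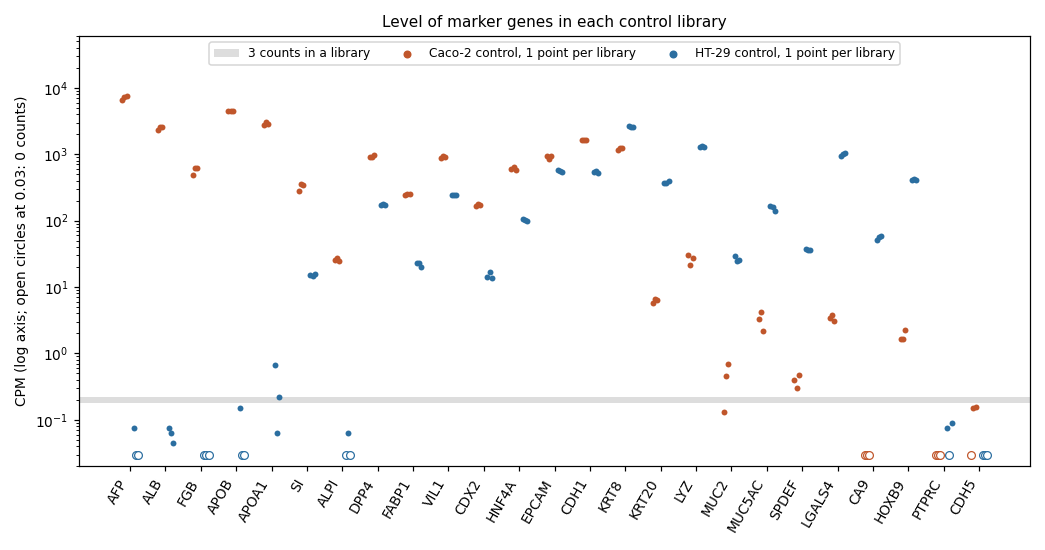
Levels of 25 genes in the 6 control libraries, in CPM on a log axis, with a point for each library of Caco-2 and HT-29, open circles at the foot for 0 counts and a grey band at 3 counts. Plasma protein, apolipoprotein and brush border genes sit higher in Caco-2, while LYZ, MUC2, MUC5AC, SPDEF, LGALS4, CA9 and HOXB9 sit higher in HT-29, and epithelial markers are present in both.

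Between the lines, 7413 of 16391 genes tested, or 45.2%, passed an edgeR adjusted p under 0.05 with a log2 fold change beyond 1 in either direction. Of all genes tested, 3967 (24.2%) were higher in Caco-2 and 3446 (21.0%) were higher in HT-29. These shares are the background for every group below, and a gene is said to pass in neither direction when it missed either limit. Without the limit on fold change, 13691 genes passed, and with a limit of 2 on the log2 scale 3944 did. The libraries of the lines did not overlap for 83.8% of genes tested. The median fold change of all genes was close to 0 (0.021 on the log2 scale) and the median of its absolute value was 0.87, set against a median standard error (SE) of 0.10. Positive log2 fold changes mean higher in Caco-2 throughout, and every value after ± in a log2 fold change is its SE, with n = 3 libraries per line. Of the protein-coding genes tested, 42.7% passed, compared with 60.1% of lncRNA genes and 44.4% of processed pseudogenes. Of the 1769 tested genes without a matched class, 55.1% passed. The filter on low counts keeps a low gene that reaches its limit in 1 line alone, which favours genes that differ. How far the shares of these classes depend on the filter was not tested.

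**Figure D2:**
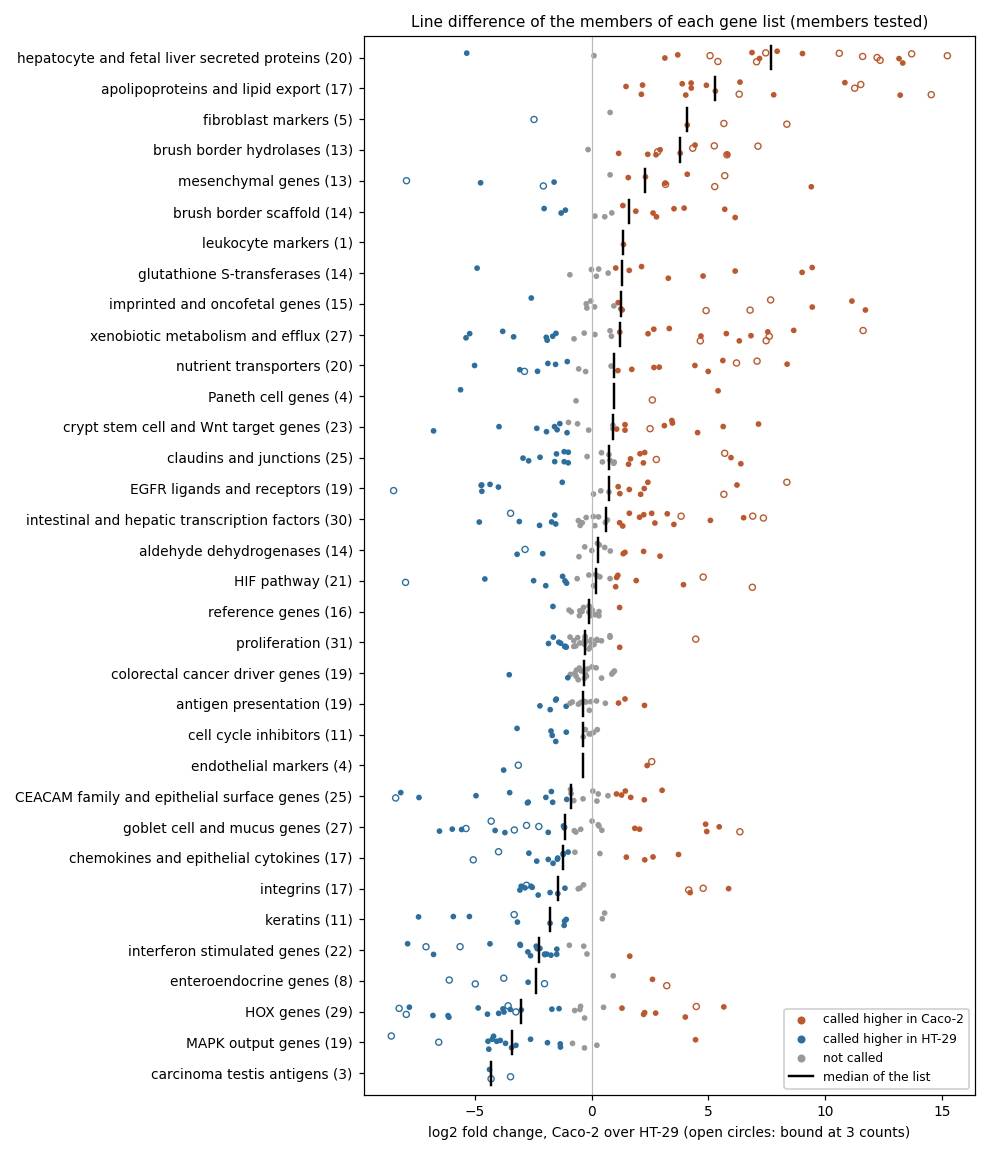
Difference between the lines for the tested members of each of the 34 gene lists, as log2 fold change of Caco-2 over HT-29, with a point for each gene, an open circle for a gene drawn at its bound of 3 counts and a mark at the list's median. Hepatocyte and fetal liver genes, apolipoproteins and brush border hydrolases lie to the Caco-2 side (medians with floor genes at their bound 7.70, 5.30 and 3.79). MAPK output genes, HOX genes and interferon stimulated genes lie to the HT-29 side (-3.43, -3.02 and -2.27).

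RPKM, the CPM of a gene divided by its length in kilobases, allow levels to be compared between genes. On this scale a plasma protein was second only to ferritin light chain in Caco-2. FTL reached 3102 ± 65.3 RPKM (SD, n = 3), AFP 2233 ± 182, APOA1 2014 ± 125, AHSG 1419 ± 66.4 and VTN 1206 ± 100.4 RPKM. These 4 secreted proteins were among the 10 highest protein-coding genes of Caco-2 outside mitochondrial DNA, and none had a mean above 0.226 RPKM in HT-29. In HT-29 the highest gene was TMSB10, which encodes an actin-binding thymosin, at 2089 ± 75.8 RPKM, and the list also held S100A6 (1194 ± 31.4), S100P (761 ± 184) and LYZ (748 ± 14.9), the gene of lysozyme. FTL, RPS12 and EEF1A1 were among the 4 genes shared by both lists. The same 10 genes headed each line when libraries were scaled by their totals alone.

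The list of hepatocyte and fetal liver secreted proteins, which also holds the membrane protein TM4SF4, had the highest median difference of the 34 lists. Of 20 genes, all tested, 18 were higher in Caco-2, 1 was higher in HT-29 and 1 passed in neither direction, and the median log2 fold change was 9.03, or 7.70 with genes at the floor of HT-29 set to their lower bound. AFP, the alpha-fetoprotein of fetal plasma, stood at 6500, 7317 and 7625 CPM in Caco-2 and had 1, 0 and 0 counts in the HT-29 libraries, a ratio of 364100 (95% interval 65350 to 14380000). ALB, which encodes albumin, stood at 2299, 2565 and 2572 CPM in Caco-2 and had 1 count in each HT-29 library, a ratio of 42140 (95% interval 14420 to 204400). No HT-29 library overlapped the Caco-2 range for either gene. The 3 chains of fibrinogen, the clotting protein, had the same direction. FGB stood at 490.3, 623 and 615 CPM in Caco-2 with no count in HT-29, which makes it at least 3125-fold higher, and FGA at 266, 304 and 295 CPM was at least 1563-fold higher. FGG stood at 824, 913 and 928 CPM with 0, 0 and 1 counts in HT-29, a ratio of 45310 (95% interval 8132 to 1790000). AHSG (fetuin-A) and VTN (vitronectin), abundant plasma glycoproteins, stood at 3000, 3294 and 3138 CPM and 2148, 2512 and 2228 CPM in Caco-2 and did not reach 0.5 CPM in any HT-29 library (log2 fold change 13.17 ± 0.12, edgeR adjusted p = 5.05e-41 and log2 fold change 13.33 ± 0.14, edgeR adjusted p = 8.83e-40). TTR, the carrier of thyroid hormone and of retinol-binding protein, stood at 606, 735 and 703 CPM in Caco-2 and 2.34, 3.15 and 2.73 CPM in HT-29. SERPINA1, the main inhibitor of neutrophil elastase, was well expressed in both lines, at 3361, 3501 and 3421 CPM against 381, 407 and 382 CPM (log2 fold change 3.14 ± 0.06, edgeR adjusted p = 2.93e-32). TM4SF4, a tetraspan membrane protein, was the member that went the other way, with 17.99, 15.1 and 14.2 CPM in Caco-2 and 605, 658 and 677 CPM in HT-29 (log2 fold change -5.35 ± 0.078, edgeR adjusted p = 1.17e-35). Members of this list together took 2.18% to 2.42% of counts in the Caco-2 libraries and 0.100% to 0.108% in the HT-29 libraries. In HT-29, TM4SF4 and SERPINA1 held most of that share.

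Apolipoproteins and genes of lipid export were the only list of at least 5 tested genes in which each tested gene was higher in Caco-2 (17 of 17, median 5.30). CD36, a fatty acid receptor of the list that was below the count filter, was tested and called higher in HT-29 when any 1 Caco-2 library or HT-29 replicate 3 was left out. APOB, the structural protein of chylomicrons and very low density lipoproteins, stood at 4453, 4401 and 4426 CPM in Caco-2 and had 2, 0 and 0 counts in HT-29, a ratio of 113400 (95% interval 31380 to 936100). MTTP, which loads lipid onto APOB, stood at 40.1, 45.6 and 37.2 CPM in Caco-2 and 0.151, 0.257 and 0.134 CPM in HT-29 (log2 fold change 7.800 ± 0.20, edgeR adjusted p = 1.53e-28). APOA1, the main protein of high density lipoprotein, stood at 2723, 3066 and 2816 CPM and 0.679, 0.0642 and 0.223 CPM. All Caco-2 libraries lay above all HT-29 libraries for these genes. APOE, a ligand of lipoprotein receptors, stood at 1043, 1116 and 1136 CPM against 0.906, 0.193 and 0.6703 CPM (log2 fold change 10.85 ± 0.12, edgeR adjusted p = 7.22e-39). Enzymes and transporters of the same route were also on the Caco-2 side. DGAT1, which makes triglyceride, was at 184, 201 and 193 CPM against 41.2, 43.9 and 46.3 CPM (log2 fold change 2.13 ± 0.062, edgeR adjusted p = 1.06e-26), and NPC1L1, the cholesterol uptake protein, at 22.98, 22.6 and 19.9 CPM against 0.604, 0.642 and 0.447 CPM (log2 fold change 5.300 ± 0.18, edgeR adjusted p = 2.16e-24). Of the 4 members below the count filter, APOC2 had no count in any library. CD36, a fatty acid receptor, passed the filter and was called higher in HT-29, as 1 gene on that side, when any 1 Caco-2 library or HT-29 replicate 3 was left out, where its counts were 11, 15 and 14, beside 0, 2 and 1 in Caco-2.

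Oncofetal and imprinted genes were mostly on the Caco-2 side (9 of 15 tested, 1 higher in HT-29, median 1.25). GPC3, a fetal surface proteoglycan, stood at 2657, 2826 and 2835 CPM in Caco-2 and 4.53, 3.66 and 3.798 CPM in HT-29 (log2 fold change 9.45 ± 0.091, edgeR adjusted p = 1.11e-40). PEG10, an imprinted gene derived from a retrotransposon, stood at 2868, 2810 and 2795 CPM and 1.74, 0.321 and 0.626 CPM (log2 fold change 11.73 ± 0.13, edgeR adjusted p = 7.22e-39). IGF2BP1, an RNA-binding protein of embryonic tissue, stood at 427, 403 and 423 CPM and 0.453, 0.0642 and 0.0894 CPM (log2 fold change 11.15 ± 0.14, edgeR adjusted p = 9.23e-38). Its relatives did not share the pattern, since IGF2BP2 and IGF2BP3 had log2 fold changes of 0.95 and -0.21 and passed in neither direction. LIN28B, which blocks maturation of let-7 miRNAs, stood at 5.38, 4.902 and 6.25 CPM with no count in HT-29, and SNRPN stood at 20.7, 22.9 and 17.5 CPM with none. HMGA1, a chromatin protein of dividing cells, was the member higher in HT-29 (102, 107 and 106 CPM against 628, 656 and 606 CPM). H19, MEG3 and DLK1, imprinted genes of the fetus, had at most 3 counts in any library.

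Hydrolases of the brush border were higher in Caco-2 in 12 of 13 tested genes (median 4.43, or 3.79 at the bound). SI, the sucrase-isomaltase of the enterocyte membrane, stood at 278, 359 and 342 CPM in Caco-2 and 15.02, 14.6 and 15.6 CPM in HT-29 (log2 fold change 4.43 ± 0.083, edgeR adjusted p = 1.75e-32). ALPI, the intestinal alkaline phosphatase, stood at 25.3, 27.3 and 24.6 CPM with 0, 1 and 0 counts in HT-29, a ratio of 1317 (95% interval 236 to 52080). LCT, the lactase of infancy, stood at 10.1, 10.3 and 10.3 CPM with 0, 0 and 1 counts in HT-29. DPP4, a dipeptidyl peptidase, was well expressed in both lines (899, 892 and 972 CPM against 172, 177 and 173 CPM, log2 fold change 2.403 ± 0.057, edgeR adjusted p = 2.1e-29). MEP1A, a subunit of meprin, stood at 288, 349 and 303 CPM against 5.06, 6.29 and 5.32 CPM (log2 fold change 5.82 ± 0.09, edgeR adjusted p = 6.23e-35). ANPEP, an aminopeptidase and widely used enterocyte marker, differed less (21.7, 24.4 and 19.5 CPM against 2.94, 3.79 and 2.99 CPM). ENPEP, a second aminopeptidase, was the tested member that passed in neither direction, with a log2 fold change of -0.15. Of the members below the count filter, TMPRSS15 (enteropeptidase) had at most 1 count per library. ALPP and ALPG are near-identical copies, and the placental phosphatases therefore remain uncertain one by one.

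The scaffold of the microvillus was split. Of 14 tested genes, 8 were higher in Caco-2, 3 were higher in HT-29 and 3 passed in neither direction. MYO1A, the motor that ties the core bundle to the membrane, stood at 241, 256 and 229.8 CPM in Caco-2 and 3.93, 3.66 and 2.905 CPM in HT-29 (log2 fold change 6.15 ± 0.09, edgeR adjusted p = 1.37e-35). CDHR5 and CDHR2, the cadherins that link neighbouring microvilli, had log2 fold changes of 3.96 and 5.703. VIL1, the actin bundler villin, stood at 876, 926 and 892 CPM and 243, 242 and 241 CPM (log2 fold change 1.89 ± 0.054, edgeR adjusted p = 8.08e-27). Parts of the actin core were not all on the same side. PLS1, a second actin bundler, was higher in HT-29 (40.5, 38.3 and 41.1 CPM against 164, 161 and 167 CPM), as was EPS8, a capping protein of actin (150.4, 153 and 154 CPM against 358, 379 and 397 CPM). EZR, the ezrin linker, had a log2 fold change of 0.14 and passed in neither direction. FABP1, a fatty acid carrier of enterocytes and hepatocytes, stood at 241, 255 and 255 CPM and 22.9, 22.7 and 19.98 CPM (log2 fold change 3.53 ± 0.067, edgeR adjusted p = 2.41e-32), whereas FABP2, the intestinal form, did not exceed 2.04 CPM in any library.

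Nutrient transporters went both ways, with 10 of 20 tested genes higher in Caco-2 and 7 higher in HT-29. SLC2A3, a glucose carrier of high affinity, stood at 389, 367 and 384 CPM in Caco-2 and 2.64, 0.193 and 0.894 CPM in HT-29 (log2 fold change 8.37 ± 0.15, edgeR adjusted p = 5.83e-33). SLC2A5, the fructose carrier, stood at 15.2, 15.99 and 9.62 CPM with 1, 0 and 0 counts in HT-29, and SLC15A1, the peptide carrier PEPT1, at 26.5, 25.4 and 23.3 CPM against 0.151, 0 and 0.0447 CPM. SLC7A7, which exports cationic amino acids, stood at 914, 945 and 902 CPM against 27.9, 28.2 and 30.2 CPM (log2 fold change 4.99 ± 0.066, edgeR adjusted p = 6.95e-37). Members higher in HT-29 included carriers that most growing cells use. SLC2A1, the glucose carrier GLUT1, stood at 187, 186 and 197 CPM against 516, 571 and 576 CPM (log2 fold change -1.55 ± 0.057, edgeR adjusted p = 1.59e-23), and SLC7A5, which brings in leucine, at 115, 119.5 and 126 CPM against 532, 594 and 666 CPM (log2 fold change -2.32 ± 0.066, edgeR adjusted p = 7.05e-27). SLC5A1, the sodium-glucose cotransporter of the brush border, was also among them, at 1.64, 2.26 and 1.41 CPM in Caco-2 and 55.6, 57.2 and 59.4 CPM in HT-29 (log2 fold change -5.02 ± 0.12, edgeR adjusted p = 4.2e-29). Absorptive carriers were thus found on both sides of the comparison, while SLC2A1 and SLC7A5 were on the HT-29 side.

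Genes of xenobiotic metabolism and efflux showed 14 of 27 tested higher in Caco-2 and 8 higher in HT-29. CES1, a carboxylesterase of liver, stood at 567, 616 and 575 CPM in Caco-2 with 2, 0 and 2 counts in HT-29, a ratio of 7489 (95% interval 2924 to 27490). ABCC2, an export pump of conjugates on the apical membrane, stood at 470.5, 460 and 453 CPM against 1.96, 0.385 and 1.16 CPM (log2 fold change 8.66 ± 0.12, edgeR adjusted p = 5.32e-36), and ABCB1, the multidrug pump P-glycoprotein, at 23.1, 20.4 and 21.4 CPM against 3.55, 4.24 and 4.25 CPM (log2 fold change 2.42 ± 0.12, edgeR adjusted p = 3.25e-19). Other pumps took the opposite side. ABCG2 stood at 11.03, 9.805 and 9.93 CPM against 39.7, 37.6 and 41.4 CPM (log2 fold change -1.95 ± 0.092, edgeR adjusted p = 2.39e-20) and ABCC1 at 18.8, 22.6 and 18.1 CPM against 77.8, 72.9 and 72.1 CPM (log2 fold change -1.91 ± 0.077, edgeR adjusted p = 2.89e-22). Among cytochromes, CYP3A5 was on the HT-29 side (31.2, 31.8 and 31.8 CPM against 289.7, 319 and 352 CPM). CYP3A4, the main drug oxidase of adult intestine and liver, reached at most 0.919 CPM in a library. Glucuronosyltransferases split by subfamily, with UGT2A3, UGT2B7, UGT2B15 and UGT2B17 higher in Caco-2 and UGT1A1 and UGT1A6, which share exons and whose reads may be split, higher in HT-29. SULT2A1, a sulfotransferase of steroids, stood at 34.8, 37.7 and 35.5 CPM in Caco-2 with no count in HT-29.

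Among glutathione S-transferases, 8 of 14 tested genes were higher in Caco-2 and 1 in HT-29. GSTA1 and GSTA2, near copies of each other, stood at 111, 132 and 135 CPM and 239, 256 and 259 CPM in Caco-2 and at 0.151, 0.385 and 0.179 CPM and 0.151, 0.321 and 0.492 CPM in HT-29. GSTO2 was the member higher in HT-29 (1.31, 1.51 and 1.41 CPM against 40.8, 42.7 and 43.6 CPM, log2 fold change -4.91 ± 0.13, edgeR adjusted p = 8.22e-28), and GSTP1, the form common in tumours, had a log2 fold change of 0.71 and passed in neither direction. Aldehyde dehydrogenases were the group with the smallest median among the metabolic lists (0.29, with 4 higher in Caco-2 and 3 in HT-29 of 14 tested). ALDH5A1, which degrades GABA, was the member farthest to the Caco-2 side at 152, 144 and 142 CPM against 18.8, 20.5 and 18.4 CPM (log2 fold change 2.93 ± 0.068, edgeR adjusted p = 9.11e-30), while ALDH1A1, a marker used for stem-like tumour cells, had 522, 511 and 534 CPM and 635, 642 and 648 CPM.

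Goblet cell and mucus genes leaned to HT-29 by number, with 14 of 27 tested higher there and 6 higher in Caco-2 (median -1.16). The summed level did not share that lean, at 1624 to 1747 CPM in Caco-2 and 1508 to 1557 CPM in HT-29. For 6 of the genes called, 1 line was at the floor. The median was -0.73 without Caco-2 replicate 1. With CoCl2, 9 of 21 tested were higher in each line (median -0.36), and with OD 12 of 24 were higher in HT-29 and 8 in Caco-2 (median -0.97). MUC5AC, a gel-forming mucin of stomach and airway, stood at 3.28, 4.22 and 2.19 CPM in Caco-2 and 164, 163 and 139 CPM in HT-29 (log2 fold change -5.57 ± 0.11, edgeR adjusted p = 7.93e-32). MUC2, the gel-forming mucin of the colon, stood at 0.131, 0.453 and 0.704 CPM and 28.9, 24.6 and 25.9 CPM (log2 fold change -5.97 ± 0.21, edgeR adjusted p = 2.71e-24). SPDEF, which drives goblet cell maturation, stood at 0.394, 0.302 and 0.469 CPM and 37.4, 35.8 and 35.9 CPM (log2 fold change -6.52 ± 0.17, edgeR adjusted p = 7.17e-28), and ATOH1, which starts the secretory lineage, at 0.0657, 0.151 and 0 CPM and 4.53, 4.49 and 3.98 CPM. Some small secreted proteins of the list went the other way. TFF1, TFF2 and TFF3, the trefoil peptides, had log2 fold changes of 4.93, 5.47 and 1.85, and ZG16, a lectin of mucus, stood at 16.3, 17.1 and 11.7 CPM against 0.0755, 0.0642 and 0.0894 CPM. MUC17, a membrane mucin of the enterocyte, was likewise higher in Caco-2 (209, 214 and 190.2 CPM against 7.78, 6.35 and 6.79 CPM, log2 fold change 4.88 ± 0.081, edgeR adjusted p = 4.56e-34), whereas MUC13, another membrane mucin, was higher in HT-29 (log2 fold change -1.18 ± 0.055, edgeR adjusted p = 1.69e-20). AGR2, which folds mucins, was abundant in both lines (775, 871 and 882 CPM and 672, 674 and 733 CPM) and passed in neither direction. The goblet marker CLCA1 was at most at 2 counts in any library. In bulk RNA, fewer cells of a type and less RNA per cell cannot be told apart, here or in any list of cell type markers. Mucin genes carry repeats that reads may not place well.

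Enteroendocrine genes were low in both lines, and 8 of 20 passed the count filter (5 higher in HT-29, 2 higher in Caco-2). For 5 of the genes called, 1 line was at the floor, so they passed the filter through the other line. The split between the lines therefore depends on the filter and is no result about the list. Without the filter, 8 were higher in HT-29 and 3 in Caco-2. PAX4 and ISL1, transcription factors of endocrine cells, stood at 6.34, 6.74 and 7.78 CPM and 15.1, 14.6 and 15.5 CPM in HT-29 with no count in Caco-2. NEUROG3, the switch into the endocrine lineage, stood at 3.17, 3.15 and 2.64 CPM in HT-29, also with no count in Caco-2. The hormone genes GCG, CCK, GIP and PYY had at most 6 counts in any library, and NEUROD1, a factor of mature endocrine cells, had none. Of 8 Paneth cell genes 4 were tested, 2 higher in Caco-2 and 1 in HT-29. DEFA5, a defensin, had no count in any library and DEFA6 had at most 1. LYZ stood at 30.01, 21.1 and 27.4 CPM in Caco-2 and 1263, 1314 and 1294 CPM in HT-29 (log2 fold change -5.62 ± 0.082, edgeR adjusted p = 1.26e-35), while PLA2G2A, a secreted phospholipase, was higher in Caco-2 (10.4, 11.2 and 12.04 CPM against 0.227, 0.193 and 0.313 CPM).

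Keratins were higher in HT-29 in 9 of 11 tested genes (median -1.78). KRT20, the keratin of surface colonocytes, stood at 5.71, 6.56 and 6.41 CPM in Caco-2 and 366, 370.3 and 398 CPM in HT-29 (log2 fold change -5.93 ± 0.081, edgeR adjusted p = 1.5e-36). KRT80, a keratin not typical of the gut, stood at 0.985, 1.06 and 0.547 CPM and 126, 154 and 170.1 CPM (log2 fold change -7.42 ± 0.15, edgeR adjusted p = 6.99e-32). The keratins shared by simple epithelia, KRT8 and KRT18, differed less (log2 fold change -1.09 ± 0.056, edgeR adjusted p = 3.21e-19 and log2 fold change -1.78 ± 0.058, edgeR adjusted p = 3.38e-25), and KRT19 passed in neither direction with a log2 fold change of 0.46.

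Of 25 tested surface genes, S100 proteins and annexins, 11 were higher in HT-29 and 6 in Caco-2 (median -0.88). LGALS4, a galectin of intestinal epithelium, stood at 3.41, 3.85 and 3.05 CPM in Caco-2 and 949.6, 1019 and 1030 CPM in HT-29 (log2 fold change -8.18 ± 0.09, edgeR adjusted p = 4.5e-39). LGALS3, another galectin, was the reverse, at 699.9, 748 and 726 CPM and 83.7, 87.99 and 95.8 CPM (log2 fold change 3.02 ± 0.061, edgeR adjusted p = 1.66e-31). ANXA10, an annexin of gastric type epithelium, had 0, 1 and 0 counts in Caco-2 and 71.7, 71.2 and 78.96 CPM in HT-29, and ANXA1 stood at 1.51, 2.11 and 1.88 CPM against 256, 291 and 375 CPM (log2 fold change -7.398 ± 0.14, edgeR adjusted p = 2.33e-32). Related genes on opposite sides were also seen in the CEACAM family. CEACAM1 stood at 41.6, 41.8 and 39.2 CPM against 158, 162 and 159 CPM (log2 fold change -1.96 ± 0.06, edgeR adjusted p = 6.36e-26), while CEACAM6 stood at 65.6, 64.2 and 74.9 CPM against 25.4, 25.2 and 24.7 CPM (log2 fold change 1.44 ± 0.073, edgeR adjusted p = 1.84e-19).

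Junction genes were evenly divided, with 9 of 25 tested on each side. CDH17, the liver-intestine cadherin, stood at 1191, 1160 and 1183 CPM in Caco-2 and 14.3, 13.3 and 14.4 CPM in HT-29 (log2 fold change 6.39 ± 0.072, edgeR adjusted p = 7.22e-39). CLDN1 and OCLN, which seal the paracellular space, were higher in Caco-2 (log2 fold change 1.66 ± 0.058, edgeR adjusted p = 2.93e-24 and log2 fold change 2.27 ± 0.065, edgeR adjusted p = 5.9e-27). CLDN2, which forms a pore for cations, was higher in HT-29 (2.495, 2.94 and 3.28 CPM against 24.2, 20.9 and 21.7 CPM, log2 fold change -2.94 ± 0.14, edgeR adjusted p = 1.65e-20), as were CLDN3 and CLDN12 with log2 fold changes of -2.700 and -2.21. CLDN4 passed in neither direction (-0.195).

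Integrins were higher in HT-29 in 10 of 17 tested genes and in Caco-2 in 4 (median -1.45). ITGA6 and ITGB4, which pair in hemidesmosomes, stood at 61.98, 56.5 and 58.7 CPM and 80.8, 89.9 and 92.2 CPM in Caco-2 and at 415, 428 and 442 CPM and 424, 439.5 and 422 CPM in HT-29. ITGA2, a collagen receptor subunit, stood at 33.2, 35.5 and 35.3 CPM against 212, 209.5 and 207 CPM (log2 fold change -2.595 ± 0.061, edgeR adjusted p = 1.81e-29). ITGB1, the common partner of most of them, passed in neither direction with a log2 fold change of -0.35. ITGA5, the fibronectin receptor subunit, was among the 4 higher in Caco-2 (4.99, 5.73 and 4.46 CPM with 3 counts over the HT-29 libraries, a ratio of 86.4 (95% interval 29.2 to 422)). Its ligand was on the same side. FN1, which encodes fibronectin and is also made by liver, stood at 5437, 4741 and 4972 CPM in Caco-2 and 11.02, 5.52 and 6.43 CPM in HT-29 (log2 fold change 9.41 ± 0.12, edgeR adjusted p = 2.56e-37).

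Of 13 tested mesenchymal genes, 8 were higher in Caco-2 and 4 in HT-29 (median 2.305). For 5 of the genes called, 1 line was at the floor. The list summed to 5118 to 5839 CPM in Caco-2 and 193.2 to 205.5 CPM in HT-29. The level of FN1 in Caco-2, given above with the integrins, was nearly as large as the Caco-2 sum. The members named next hold little of that sum and do not show the direction of the list. VIM, the intermediate filament of mesenchyme, reached at most 2.26 CPM, ZEB1 stood at 0.906, 0.963 and 0.894 CPM in HT-29 and at 0 in Caco-2, and SNAI2 and TWIST1 had no count in any library. MMP7, a protease of epithelial tumours, stood at 52.02, 53.6 and 55.3 CPM in HT-29 against 0.131, 0.226 and 0 CPM in Caco-2. Markers of cells that a pure culture should lack were also read. Of 10 leukocyte markers 1 was tested, CD14, a lipopolysaccharide receptor also made by epithelium (4.79, 5.28 and 5.63 CPM against 2.27, 1.67 and 2.19 CPM), and the summed level of the list was 6.04 to 7.39 CPM in Caco-2 and 2.18 to 2.59 CPM in HT-29. Without Caco-2 replicate 3 or any 1 HT-29 library, 2 of these markers were called higher in Caco-2. The fibroblast list summed to 98.2 to 110 CPM in Caco-2 and 5.71 to 6.19 CPM in HT-29, with COL1A2 at 0 in all libraries and DCN at no more than 3 counts in any. Of its 5 tested genes, Caco-2 was higher for 3 and HT-29 for 1, and 5 were higher in Caco-2 without Caco-2 replicate 3, HT-29 replicate 1 or HT-29 replicate 2. For 3 of the fibroblast genes called, 1 line was at the floor. The level of the fibroblast list in Caco-2 came mainly from PDGFRB (55.9, 65.3 and 60.98 CPM) and COL1A1 (26.6, 29.8 and 28.4 CPM). The endothelial list summed to 13.3 to 18.8 CPM in Caco-2 and 52.4 to 53.5 CPM in HT-29, most of it in HT-29 from ESAM, a junction protein (47.4, 49.8 and 49.8 CPM), with CDH5 at no more than 2 counts in any library. Of its 4 tested genes, 2 were higher in each line, and for 2 of the 4 a line was at the floor. PTPRC of the leukocyte list and ERG of the endothelial list were at or near 0, whereas PDGFRB, COL1A1 and ESAM were not. The part of other cell types in the differences above was not tested.

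Transcription factors of gut and liver were higher in Caco-2 in 14 of 30 tested genes and in HT-29 in 7. CDX2 stood at 165, 179.9 and 174 CPM in Caco-2 and 14.3, 17.1 and 13.9 CPM in HT-29 (log2 fold change 3.52 ± 0.073, edgeR adjusted p = 4.2e-31), while its relative CDX1 was low in both (0.131, 0.0754 and 0 CPM and 2.04, 3.08 and 2.19 CPM). HNF4A stood at 598, 639 and 587 CPM against 105, 102 and 100.1 CPM (log2 fold change 2.57 ± 0.058, edgeR adjusted p = 3.84e-30). Its paralog HNF4G had the reverse order (10.51, 9.58 and 9.93 CPM against 85.5, 90.5 and 82.2 CPM, log2 fold change -3.100 ± 0.08, edgeR adjusted p = 3.41e-28). The paralogs were thus on opposite sides. CREB3L3, a liver factor for lipid genes, and MAF stood at 24.1, 22.3 and 19.7 CPM and 29.5, 31.1 and 30.2 CPM in Caco-2 with no count in HT-29. ONECUT2, a homeobox factor, stood at 7.42, 10.1 and 8.68 CPM against 261, 238 and 236 CPM (log2 fold change -4.82 ± 0.083, edgeR adjusted p = 1.42e-33). KLF5, a factor of the proliferating crypt, was higher in HT-29 (log2 fold change -1.54 ± 0.059, edgeR adjusted p = 4.16e-23).

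HOX genes, which record position along the body axis, differed by cluster. Of 39 genes 29 were tested, 17 were higher in HT-29 and 7 in Caco-2 (median -3.02). HOXB9 stood at 1.64, 1.66 and 2.27 CPM in Caco-2 and 410, 430.1 and 406 CPM in HT-29 (log2 fold change -7.81 ± 0.096, edgeR adjusted p = 9.15e-38), HOXB3 at 2.82, 1.43 and 1.49 CPM and 144, 145 and 132 CPM, and HOXB5 had no count in Caco-2 and 56.6, 57.6 and 47.6 CPM in HT-29 (at least 246-fold higher). Of the A cluster, 7 genes were higher in HT-29, for example HOXA13, a marker of the hindgut, at 5.32, 4.98 and 6.33 CPM and 66.3, 63.5 and 56.98 CPM (log2 fold change -3.49 ± 0.1, edgeR adjusted p = 6.47e-27). The end of the C cluster was on the other side, with HOXC8, HOXC9, HOXC10, HOXC11, HOXC12 and HOXC13 all higher in Caco-2. HOXC12 stood at 18.4, 22.02 and 17.2 CPM against 0.302, 0.449 and 0.357 CPM (log2 fold change 5.66 ± 0.21, edgeR adjusted p = 1.72e-23). The D cluster was near the floor in both lines, apart from HOXD13 with 2.19, 2.18 and 1.88 CPM in HT-29 and no count in Caco-2. Neighbouring HOX genes and their antisense transcripts overlap. The library kit marks the strand, but whether counting used it was not stated, so a HOX gene and its antisense partner are uncertain one by one.

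**Figure D3:**
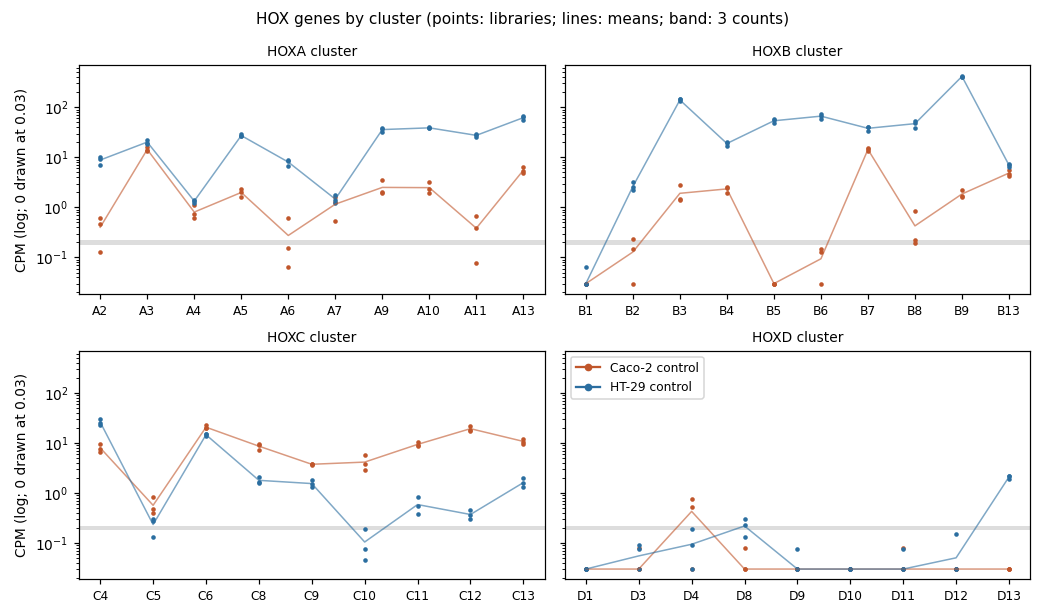
CPM of HOX genes in the control libraries on a log axis (points are libraries, lines are means of a line), grouped by cluster A to D and ordered by number. Most cluster A and B genes drawn sit higher in HT-29 (HOXB9 at 406 to 430 CPM), and HOXC8 to HOXC13 sit higher in Caco-2.

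Crypt and Wnt target genes were divided (10 of 23 tested higher in Caco-2, 8 higher in HT-29). LGR5, the receptor that marks crypt stem cells, stood at 32.8, 30.9 and 36.1 CPM in Caco-2 and 3.47, 2.76 and 2.905 CPM in HT-29 (log2 fold change 3.46 ± 0.12, edgeR adjusted p = 4.21e-24). DKK1, a secreted Wnt inhibitor, stood at 132, 108 and 136 CPM against 44.5, 44.8 and 49.96 CPM (log2 fold change 1.43 ± 0.072, edgeR adjusted p = 1.75e-19). AXIN2 and RNF43, feedback inhibitors that Wnt signalling induces, were higher in HT-29 (log2 fold change -1.59 ± 0.09, edgeR adjusted p = 5.03e-18 and log2 fold change -1.48 ± 0.068, edgeR adjusted p = 1.24e-20). CD44, a hyaluronan receptor, was the member farthest to the HT-29 side (6.43, 5.73 and 6.64 CPM against 713, 693 and 656 CPM, log2 fold change -6.77 ± 0.081, edgeR adjusted p = 4.05e-38). OLFM4, a marker of human crypt stem cells, had 0, 0 and 3 counts in Caco-2 and none in HT-29. Stem cell markers and Wnt targets in this list therefore gave no common direction.

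Of 31 proliferation genes, 2 were higher in Caco-2, 7 were higher in HT-29 and 22 passed in neither direction (median -0.29). Of all genes, 24.2% were higher in Caco-2 and 21.0% in HT-29, so the HT-29 share of the list was near the background. The calls on the HT-29 side are therefore no result about the list. MKI67, the Ki-67 antigen of cycling cells, stood at 249, 272 and 273 CPM in Caco-2 and 855, 846 and 781 CPM in HT-29 (log2 fold change -1.64 ± 0.057, edgeR adjusted p = 2.82e-24), and CCNB2, a cyclin of mitosis, at 45.4, 49.7 and 50.97 CPM and 173, 171 and 181 CPM (log2 fold change -1.85 ± 0.061, edgeR adjusted p = 5.49e-25). MCM2, which helps to license DNA replication, stood at 57.5, 59.3 and 61.1 CPM and 62.8, 61.4 and 59.97 CPM and passed in neither direction. MCM6, of the same complex, was higher in Caco-2 (log2 fold change 1.201 ± 0.059, edgeR adjusted p = 8.32e-20). TOP2A, CDC20, BUB1 and PLK1, which act in mitosis, were also on the HT-29 side. With CoCl2, 11 of these 31 genes were higher in Caco-2 and 1 was higher in HT-29, and with OD 10 and 2. Of 11 inhibitors of the cycle, 5 were higher in HT-29, among them CDKN2A (6.57, 6.33 and 6.802 CPM against 62.4, 59.6 and 59.1 CPM, log2 fold change -3.197 ± 0.09, edgeR adjusted p = 3.72e-27) and CDKN1A, which encodes p21 (32.7, 28.7 and 28.7 CPM against 76.5, 98 and 115 CPM, log2 fold change -1.69 ± 0.093, edgeR adjusted p = 2.66e-18).

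Output genes of the MAPK pathway were higher in HT-29 in 15 of 19 tested genes and in Caco-2 in 1, with the lowest median of any list of more than 5 tested genes (-3.43). DUSP6, the phosphatase that ERK induces against itself, stood at 11.2, 12.1 and 11.2 CPM in Caco-2 and 133, 155 and 156 CPM in HT-29 (log2 fold change -3.69 ± 0.08, edgeR adjusted p = 1.23e-30). ETV5, a transcription factor induced by ERK, stood at 3.81, 3.92 and 2.74 CPM and 71.9, 77.7 and 79.4 CPM (log2 fold change -4.44 ± 0.10, edgeR adjusted p = 1.21e-29). EGR1, an immediate early gene, stood at 8.01, 9.73 and 9.85 CPM and 145, 186 and 194 CPM (log2 fold change -4.26 ± 0.098, edgeR adjusted p = 9.72e-30). SPRED1 and SPRY4, inhibitors of the same pathway, stood at 147, 148 and 143 CPM and 99.2, 115 and 121 CPM in HT-29 and at 12.5, 13.2 and 14.9 CPM and 16.8, 17.8 and 20.2 CPM in Caco-2. Targets and feedback inhibitors were therefore on the same side. EPHA4, an ephrin receptor, was the member higher in Caco-2 (24.4, 21.9 and 24.9 CPM against 1.36, 1.09 and 0.894 CPM), and CCND1 and DUSP5 passed in neither direction with log2 fold changes of 0.22 and -0.31. BRAF itself stood at 90.7, 83.5 and 84.6 CPM and 71.1, 76.8 and 78.4 CPM and passed in neither direction. With CoCl2, 8 of the 19 were higher in HT-29 and 4 in Caco-2 (median -0.62), and with OD 8 and 2 (median -0.49).

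Ligands of the EGF receptor were on the HT-29 side and receptors mostly were not. AREG stood at 28.1, 25.6 and 24.2 CPM in Caco-2 and 330.4, 434 and 479.9 CPM in HT-29 (log2 fold change -3.995 ± 0.094, edgeR adjusted p = 1.87e-29), EREG at 13.6, 9.73 and 12.7 CPM and 263, 321 and 378 CPM (log2 fold change -4.73 ± 0.11, edgeR adjusted p = 3.8e-30), and HBEGF at 3.81, 3.17 and 4.14 CPM and 80.03, 94.3 and 114 CPM (log2 fold change -4.704 ± 0.12, edgeR adjusted p = 5.07e-28). TGFA had 5 counts over the 3 Caco-2 libraries and 72.9, 77.1 and 85.8 CPM in HT-29, a ratio of 659 (95% interval 282 to 2031) in favour of HT-29. EGFR, the receptor of all 4, passed in neither direction (223, 217 and 215 CPM and 164, 170.4 and 166 CPM, log2 fold change 0.39 ± 0.053, edgeR adjusted p = 3.29e-08). ERBB2 and the FGF receptors FGFR2, FGFR3 and FGFR4 were higher in Caco-2, with log2 fold changes of 1.21, 2.25, 1.61 and 1.14. MET, the receptor of hepatocyte growth factor, was higher in HT-29 (294, 307 and 305 CPM against 686, 716 and 766 CPM, log2 fold change -1.26 ± 0.056, edgeR adjusted p = 3.59e-21). Over the whole list 9 of 19 tested genes were higher in Caco-2 and 7 in HT-29.

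Interferon stimulated genes were higher in HT-29 in 18 of 22 tested genes and in Caco-2 in 1 (median -2.27). IFI27 stood at 0.854, 1.28 and 1.56 CPM in Caco-2 and 108, 156 and 137 CPM in HT-29 (log2 fold change -6.77 ± 0.15, edgeR adjusted p = 3.18e-30), and OAS2, a sensor of double-stranded RNA, at 0.263, 0 and 0.156 CPM and 26.2, 45.9 and 36.2 CPM (log2 fold change -7.89 ± 0.29, edgeR adjusted p = 2.2e-23). IFI44 had no count in Caco-2 and stood at 23.6, 37.99 and 28.6 CPM in HT-29 (at least 137-fold higher). ISG15, a ubiquitin-like modifier, stood at 5.84, 6.33 and 6.802 CPM and 42.3, 58.02 and 56.1 CPM (log2 fold change -3.05 ± 0.11, edgeR adjusted p = 1.9e-23), and IFIT1, which binds foreign RNA, at 11.4, 12.1 and 11.7 CPM and 24.99, 39.9 and 33.8 CPM (log2 fold change -1.49 ± 0.12, edgeR adjusted p = 5.74e-14). Within HT-29, replicate 1 had the lowest level of these 5 genes, yet it lay above all Caco-2 libraries for each. STAT2, a subunit of the factor that binds the ISRE, was higher in Caco-2 (136, 133 and 122 CPM against 42.05, 42.7 and 41.4 CPM, log2 fold change 1.63 ± 0.062, edgeR adjusted p = 3.65e-23), while its partner IRF9 was higher in HT-29 (log2 fold change -1.497 ± 0.17, edgeR adjusted p = 3.48e-10). In the treated libraries 21 of these 22 genes were higher in HT-29, both with CoCl2 and with OD.

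The ISRE letters, shown above for IFIT1 and ISG15, were present in the 250 bases upstream of 12 of the 16 interferon stimulated genes with a RefSeq promoter (75.0%). They were present upstream of 3.26% of the 11234 tested genes with a promoter, of 2.91% of genes called higher in Caco-2 and of 4.29% of those called higher in HT-29. HNF4 letters stood upstream of 1.92% of genes higher in Caco-2, 1.06% of genes higher in HT-29 and 1.04% of all, and in the hepatic list upstream of AHSG and TM4SF5 (2 of 16). CDX letters stood upstream of 3.32% and 3.67% of these sets and 3.10% of all, and among the brush border hydrolases upstream of SI alone (1 of 10). Across the same sets, the AP-1 letters TGANTCA stood upstream of 7.82%, 8.09% and 6.32%. Of 16212 promoters, 1551 held at least 1 of the 4 motifs and 1 held overlapping matches of different motifs. All shares are descriptions of letters in a short window.

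Of 19 tested genes of antigen presentation, 5 were higher in HT-29 and 3 in Caco-2 (median -0.35), and 11 passed in neither direction. B2M, the invariant chain of class I molecules, passed in neither direction, with a log2 fold change of -0.46. ERAP1 and ERAP2, which trim peptides for class I, were on opposite sides (log2 fold change 2.26 ± 0.063, edgeR adjusted p = 3.1e-27 and log2 fold change -2.22 ± 0.069, edgeR adjusted p = 9e-26), and HLA genes, whose reads are hard to place, were not read one by one. Of 17 tested chemokines and epithelial cytokines, 11 were higher in HT-29 and 4 in Caco-2 (median -1.22). With CoCl2, 7 of 16 tested were higher in HT-29 and 6 in Caco-2 (median 0.039), and with OD 8 and 3 (median -1.02). The list summed to 187.6 to 194.8 CPM in Caco-2 and 122.5 to 134.7 CPM in HT-29. For 2 of the genes called in controls, 1 line was at the floor. CXCL8, the neutrophil attractant, stood at 5.66, 7.19 and 9.29 CPM in HT-29 and had 3, 0 and 0 counts in Caco-2. IL18 and IL32 were higher in Caco-2 (log2 fold change 2.63 ± 0.091, edgeR adjusted p = 1.94e-24 and log2 fold change 3.72 ± 0.12, edgeR adjusted p = 7.13e-25).

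In the HIF pathway, the oxygen-sensing system that the treatments of the study act on, 7 of 21 tested genes were higher in each line without treatment. HIF1A, the regulated subunit, passed in neither direction (97.3, 96.1 and 108 CPM in Caco-2 and 107, 107 and 113 CPM in HT-29). EPAS1, which encodes HIF-2 alpha, was higher in Caco-2 (log2 fold change 1.12 ± 0.06, edgeR adjusted p = 9.08e-19), and HIF3A stood at 22.3, 20.6 and 22.5 CPM there with no count in HT-29. CA9, a carbonic anhydrase that HIF-1 induces, had no count in Caco-2 and 51.6, 56.2 and 57.6 CPM in HT-29 (at least 252-fold higher). VEGFA, the vascular growth factor, was higher in HT-29 (222, 218 and 215 CPM against 472, 533 and 548 CPM, log2 fold change -1.25 ± 0.058, edgeR adjusted p = 1.67e-20), and BNIP3, a mitophagy receptor, in Caco-2 (46.5, 49.3 and 47.1 CPM against 2.64, 3.85 and 2.86 CPM, log2 fold change 3.93 ± 0.11, edgeR adjusted p = 6.86e-27). Targets of the pathway were thus on both sides before any treatment. PLAUR, the urokinase receptor, stood at 2.17, 2.11 and 1.88 CPM against 40.8, 50.3 and 55.7 CPM (log2 fold change -4.58 ± 0.14, edgeR adjusted p = 3.46e-26), opposite to ITGA5 above. NFATC1 did not pass the count filter, with 10, 12 and 11 counts in Caco-2 against 1, 3 and 2 counts in HT-29.

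Colorectal cancer driver genes were the list with the fewest calls for its size (2 of 19, both higher in HT-29). SMAD2, a mediator of TGF-beta signals, was just past the limit (log2 fold change -1.02 ± 0.062, edgeR adjusted p = 3.97e-17) and was no longer called without Caco-2 replicate 2 (log2 fold change -0.98). SMAD4, at 0.98, was called higher in Caco-2 without Caco-2 replicate 2 or HT-29 replicate 1 (1.03 and 1.01). APC and PIK3CA had log2 fold changes of -0.53 and -0.92 and passed in neither direction. Of 20 cancer testis antigens 17 were below the count filter, with at most 2 counts in any control library. The 3 tested, MAGEA3, MAGEA6 and MAGEA12, were higher in HT-29, are near-identical and are uncertain one by one. The list summed to 0.226 to 1.17 CPM in Caco-2 and 11.85 to 12.84 CPM in HT-29. For 2 of the 3 Caco-2 was at the floor, so they passed the filter through HT-29. Their shared direction is therefore no result about the list. Of 16 reference genes, GUSB was higher in Caco-2 (log2 fold change 1.197 ± 0.059, edgeR adjusted p = 1.12e-19) and YWHAZ in HT-29 (log2 fold change -1.66 ± 0.057, edgeR adjusted p = 1.63e-24). RPLP0 and ACTB, common normalisers, passed in neither direction (1370, 1448 and 1389 and 1399, 1381 and 1542 CPM, and 1591, 1633 and 1685 and 1558, 1497 and 1369 CPM). PGK1, a glycolytic enzyme, was at the limit, at -0.97, and was called higher in HT-29 without HT-29 replicate 1 (-1.001).

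Genes expressed in 1 line only were taken as those with at least 10 CPM in each library of that line and at most 3 counts in each library of the other. By this rule 228 genes were expressed in Caco-2 only and 76 in HT-29 only, 304 in all, and for 74 and 25 of them the other line had no count in any library. The numbers moved with the limits, from 183 genes in all at 20 CPM to 457 at 5 CPM, and from 99 with no count allowed to 510 with 10 counts allowed. Protein-coding genes made up 209 and 69 of the sets, and 30 and 9 genes were above 100 CPM on average. The most abundant in Caco-2 were AFP, APOB, ALB, ITIH2, FGG, CES1, FGB, APOA2, APOC3 and C3. C3, the central complement component, stood at 429, 442 and 399 CPM with 3, 3 and 2 counts in HT-29. All 10 encode proteins made by liver.

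The HT-29 set was more mixed. MSN, which encodes moesin and links actin to the membrane in most cell types, stood at 418, 460 and 457 CPM with 1, 0 and 0 counts in Caco-2, a ratio of 18480 (95% interval 3317 to 730100) in favour of HT-29. LCN2, an iron-scavenging defence protein, stood at 184, 227 and 229.5 CPM with 3, 1 and 1 counts in Caco-2. SLITRK6, a membrane protein known from neurons and the inner ear, stood at 188, 181 and 178 CPM, and TRPS1, a GATA-type repressor, at 158, 175 and 169 CPM. NMUR2, a receptor of neuromedin U, stood at 129, 137 and 142 CPM without any count in Caco-2. The other 5 of the 10 most abundant were RASEF, MYOM3, TNS4, KLK6 and ABLIM3. EZR, which encodes the related linker ezrin, passed in neither direction, as given above.

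Ranked by fold change among protein-coding genes with a mean of at least 100 counts, the Caco-2 end held AFP, APOB, FGB, ALB, FGA, FGG, SDC2, PHYHIPL, ITIH2 and ADAM23. SDC2, a heparan sulfate proteoglycan, stood at 161, 158 and 168 CPM in Caco-2 with no count in HT-29 (at least 881-fold higher). The HT-29 end held NMUR2, MSN, KLK11, GALNT14, CA9, HOXB5, CALB2, SLITRK6 and AQP5 among its 10. CALB2, the calcium buffer calretinin, stood at 47.6, 48.2 and 50.3 CPM without a count in Caco-2 (at least 222-fold higher). Because 1 line was at or near the floor for all 20, their order rests on counting and not on a measured ratio. Among lncRNA genes, LINC01291 stood at 31.6, 28.8 and 29.1 CPM and LINC00858 at 14.2, 15.5 and 15.6 CPM in Caco-2 with no count in HT-29. SNHG14, the host transcript that runs past SNRPN on chromosome 15, stood at 209.6, 196 and 181 CPM against 0.227, 0.193 and 0.268 CPM (log2 fold change 9.66 ± 0.13, edgeR adjusted p = 2.79e-36). SNRPN and SNHG14 overlap, and their counts are uncertain one by one. On the HT-29 side, LINC02432 stood at 51.8, 52.95 and 46.1 CPM with 0, 1 and 0 counts in Caco-2, HOXB-AS3 at 51.2, 51.9 and 51.4 CPM against 0.131, 0 and 0.313 CPM, and LINC00346 at 27.5, 28.4 and 31.1 CPM against 0.131, 0.0754 and 0.0782 CPM.

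Most differences between untreated lines were also there under treatment. The same test in the CoCl2 libraries called 47.1% of 15311 genes (27.0% higher in Caco-2, 20.2% higher in HT-29), and in the OD libraries 44.8% of 16065 genes (22.5% and 22.3%). Of the 7413 genes called in controls, 6159 were tested with CoCl2. Of those tested, 4623 (75.1%) were called in the same direction, 1462 were not called and 74 were called in the opposite direction. With OD the numbers were 5209 of 6721 (77.5%), 1478 and 34. Of genes higher in Caco-2, 81.6% were called in that direction again with CoCl2, and of genes higher in HT-29 67.3%. Most of the others were not called (587 and 875), and 28 and 46 were called in the opposite direction. With OD the shares called again were 78.1% and 76.8%. The difference between these shares was not tested. Of the 7413 genes, 4001 were called in the same direction in all 3 conditions, 2337 higher in Caco-2 and 1664 higher in HT-29. The treated libraries are other samples of the same lines, so they repeat the contrast without sharing samples with it.

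**Figure D4:**
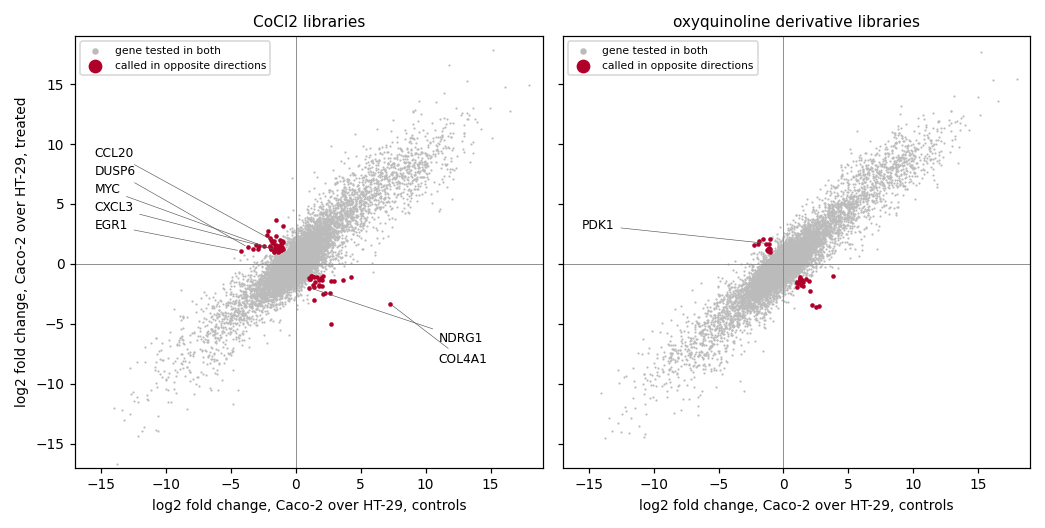
Log2 fold change of Caco-2 over HT-29 in controls (horizontal axis) against the same value in the CoCl2 libraries and in the OD libraries (vertical axes), with a point for each gene tested in both. Most genes lie along the diagonal, and the labelled genes are members of the lists called in opposite directions, such as EGR1 and DUSP6 with CoCl2 and PDK1 with OD.

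Of the genes named by rule, 8 were called in opposite directions with a treatment. EGR1 was higher in HT-29 in controls (9.20 ± 1.03 CPM in Caco-2 and 175 ± 26.2 CPM in HT-29, SD, n = 3) and higher in Caco-2 with CoCl2 (19.8 ± 0.598 and 9.35 ± 0.977 CPM). DUSP6 went from 11.5 ± 0.561 CPM in Caco-2 and 148 ± 12.7 CPM in HT-29 to 45.7 ± 1.13 and 17.5 ± 0.468 CPM with CoCl2. In both genes the HT-29 mean was lower and the Caco-2 mean higher with CoCl2 than without it, and the change within a line was not tested here. NDRG1, a hypoxia-induced gene, was higher in Caco-2 in controls (320 ± 29.7 and 157 ± 11.7 CPM) and higher in HT-29 with CoCl2 (1738 ± 50.1 and 6838 ± 93.9 CPM). Its control difference sat at the limit (log2 fold change 1.03 ± 0.063, edgeR adjusted p = 5.32e-17), and it was no longer called when Caco-2 replicate 2, HT-29 replicate 1 or HT-29 replicate 3 was left out (0.96 to 0.98). PDK1, which blocks pyruvate entry into mitochondria, was higher in HT-29 in controls (26.7 ± 2.096 and 58.8 ± 2.90 CPM) and higher in Caco-2 with OD (165 ± 11.01 and 51.0 ± 6.13 CPM).

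By chromosome the lines differed little at the median. Chromosome medians ran from -0.64 on chromosome 15 (478 genes) to 0.42 on chromosome 21 (135 genes), and 13 of 23 were above 0. In windows of 10 Mb, which were chosen after the data had been seen, the spread was wider. Of 249 windows with at least 20 tested genes, 8 had a median beyond 1 in either direction, while the 10th and 90th percentiles were -0.67 and 0.58. The lowest lay on chromosome 8 from 120000001 to 130000000, where 34 of 38 genes were called higher in HT-29 and 2 in Caco-2 (median -2.38). MYC, the growth regulator in that window, stood at 50.03, 45.3 and 54.96 CPM in Caco-2 and 183, 191 and 199.8 CPM in HT-29 (log2 fold change -1.94 ± 0.065, edgeR adjusted p = 7.68e-25). The next was on chromosome 9 from 20000001 to 30000000, where 16 of 20 genes were higher in HT-29 (median -2.35), and CDKN2A and CDKN2B lie in it. On the short arm of chromosome 8, from 20000001 to 30000000, the sign was opposite, with 38 of 59 genes higher in Caco-2 and 3 in HT-29 (median 1.399). All 8 windows had the same sign with CoCl2 and with OD. Gene copy number was not measured here. Neighbouring genes are not independent replicates, so no test was made over windows.

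**Figure D5:**
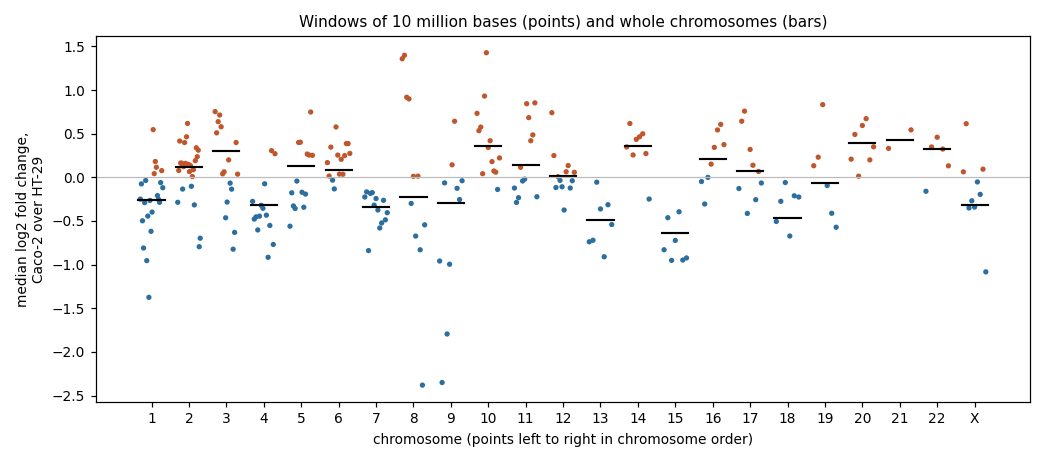
Median log2 fold change of Caco-2 over HT-29 in windows of 10 Mb with at least 20 tested genes (points) and of whole chromosomes (bars), by chromosome. Of 249 windows 8 lie beyond 1 in either direction, 5 of them below and 3 above, and the lowest is on chromosome 8 at -2.38.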

How the data were processed

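Poly(A) RNA of Caco-2 and HT-29 cells was sequenced as single-end reads from a strand-marking kit. The authors deposited whole-number read counts per gene, not normalised, and a table of log2(RPKM + 1) values scaled within each line. Per the labels, reads were processed with cutadapt 2.10 and STAR 2.7.5b (FastQC 0.11.9, Bowtie 1.1.1 and edgeR 3.30.3 are also listed) against GRCh38.p13. The counting tool and its use of strand are not given in the sources used here. The deposited log2 values served only to recover gene lengths, from which RPKM was computed on TMM-scaled counts, because their scaling does not allow a test across lines. The small RNA files were not used.

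Counts were tested with the edgeR quasi-likelihood test (edgeR 4.0.16, R 4.3.3, TMM, filterByExpr, 1 coefficient per line, 3 libraries each). A gene was called at a Benjamini-Hochberg adjusted p under 0.05 and an absolute log2 fold change over 1. The same fit was made in the CoCl2 and OD libraries, and the change of the line difference with treatment was fitted as an interaction in all 18 libraries. Fold changes from a line with no count were given as a lower bound at 3 counts per library, and those from at most 3 counts per library as ratios with an exact 95% conditional binomial interval. Gene positions and classes came from GENCODE v44 on GRCh38, which matched 37989 of 60591 gene names. The 34 lists (698 genes) and the libraries compared were chosen with earlier results of these data known. Genes were named if they were on a list, among the 10 highest and 10 lowest fold changes of protein-coding genes with a mean of at least 100 counts and no overlap between the lines (3 and 3 for lncRNA), among the 10 highest RPKM or the 10 most abundant genes of 1 line only, or reversed under treatment. Some genes that meet this rule are not reported here. The labels do not say that replicates were separate cultures. The methods of the study give 3 biological replicates per condition for Caco-2, do not define them and do not cover HT-29. P-values therefore measure the spread between these libraries, which may be technical. No pairing by replicate number was seen over all genes (correlations of same-numbered deviations between -0.00058 and 0.028 after centring on the line), which cannot exclude a shared batch that moves few genes. The test was checked on simulated counts. DESeq2 1.42.0, other scalings, filters and fold limits, a replicate block and leaving out each library were alternatives. Totals of 12925719 to 22332639 counts set the precision of low genes.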

Additional observations from a re-analysis of the deposited data

Results flagged for a closer look

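For 8 named genes the difference between the lines was called in opposite directions in controls and with a treatment. They were chosen for those calls, so an interaction test in the same libraries was bound to pass, and the values are given as a description without a p. Each value is the log2 line difference with treatment minus that in controls, ± SE from edgeR, with 3 libraries per group. With OD, PDK1 gave 2.83 ± 0.12. With CoCl2, the early response genes EGR1, DUSP6 and MYC gave 5.35 ± 0.16, 5.08 ± 0.12 and 3.21 ± 0.11. MYC went from means of 50.1 ± 4.82 CPM in Caco-2 and 191 ± 8.47 CPM in HT-29 (SD, n = 3) to 87.7 ± 7.35 and 36.3 ± 1.55 CPM. The chemokine genes CCL20 and CXCL3 gave 3.55 ± 0.27 and 2.64 ± 0.37, from control means of 1.83 ± 0.373 and 5.62 ± 1.95 CPM for CCL20 and 1.14 ± 0.268 and 3.16 ± 0.410 CPM for CXCL3. Their means with CoCl2 were 22.3 ± 0.837 and 5.97 ± 0.916 CPM for CCL20 and 2.99 ± 0.522 and 1.33 ± 0.382 CPM for CXCL3. NDRG1 gave -2.998 ± 0.12. COL4A1, a chain of basement membrane collagen, gave -10.52 ± 0.48, from 7.13 ± 0.516 and 0.0428 ± 0.0741 CPM to 1.07 ± 0.570 and 11.2 ± 0.423 CPM, and the size of that value depends on the prior count because HT-29 was at the floor in controls. Among all genes, 98 were called in opposite directions under at least 1 treatment.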

How the results depend on the processing

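Of 242 named genes that were tested, 238 kept their direction and their call under other scalings, DESeq2, no filter, a joint fit, a replicate block and leaving out each library, and NDRG1, PGK1, SMAD2 and SMAD4 did not. With a limit of 2, 47 were no longer called, and with glmTreat 4 (HOXC9, NDRG1, PLK1 and SMAD2). Without a limit on the fold change, 23 that passed in neither direction were called, so that phrase does not mean equal levels. Without that limit, 13691, 12546 and 13036 genes were called in controls, CoCl2 and OD, and with a limit of 2 on the log2 scale 3944, 3683 and 3864. Leaving out 1 library in turn gave 7651 to 7996, 7514 to 7687 and 7435 to 7558 genes. Other scalings, DESeq2, glmTreat and a joint fit of 18 libraries gave 6304 to 8202 genes in controls, and testing without a filter on low counts gave 10367. Scaling CoCl2 libraries by their totals alone split the calls 4586 against 2599 in place of 4131 against 3086. Genes of 1 line only numbered 457 and 183 with 5 and 20 CPM in place of 10, and 99 and 510 with at most 0 and at most 10 counts in the other line. The median of the endothelial markers was -0.70, and 2.37 without the filter, where more of its genes were tested. The median of chromosome 12 was 0.017 and turned to -0.018 with library totals and to -0.022 for genes with a mean of at least 100 counts. With library totals NDRG1 was 0.99 and not called, and PGK1 was called. A fit with the replicate number as a block called 7404, 7217 and 7176 genes. Deviations of same-numbered libraries correlated by 0.028, -0.00058 and 0.015, so no pairing by number was seen over all genes. These values cannot exclude a shared batch that moves few genes. Depth limits genes with a line at or near 3 counts, 883 of those called higher in Caco-2 and 468 of those higher in HT-29, for which the size of the difference rests on few counts.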
